A study of Homo sapiens with 38 samples.

Results

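The 10 genes ALB, AHSG, TTR, APOA1, APOA2, APOB, F2, FGA, FGB and SERPINA1 encode proteins that hepatocytes secrete into the blood, and they were taken as a named list from the 20162 protein-coding genes of the annotation. Each gene was scored for called peaks of H3K27ac and H3K27me3 in windows of 1.5 kb either side of every annotated transcript start and over the gene body. The cells were K562, an established human leukemia line of erythroid character, and no liver sample was analysed, so the list describes liver genes in cells of another lineage. CUT&Tag, in which an antibody directs a transposase to cut and tag DNA beside a histone mark in permeabilised cells, had been run on 38 libraries (31 for H3K27ac, 7 for H3K27me3).

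A benchmark set held 8 libraries. Of these, 6 were H3K27ac libraries, with 2 replicates each of the antibodies ab177178 and ab4729 (both diluted 1:100) and Diagenode (1:50), and 2 were replicates of the H3K27me3 antibody CST-9733 (1:100). Among the optimisation libraries, 6 were first libraries (ab177178, ab4729, Active Motif and Diagenode at 1:100, Diagenode at 1:50, and CST-9733), and 4 were H3K27ac libraries made with the histone deacetylase inhibitor TSA in the assay solutions. A further 20 libraries crossed 4 H3K27ac antibodies and CST-9733 with 11 or 13 PCR cycles and with SDS or column extraction of DNA, with 1 library for each condition. All other libraries had 15 cycles and SDS extraction, and only the 4 TSA libraries carried a drug. There were 56 peak lists: 38 from SEACR, 1 for each library, and 18 from MACS2, for all libraries outside the PCR and extraction experiment. The study describes the benchmark replicates as biological, and the labels do not say whether they came from separate cultures.

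H3K27ac, acetylation of lysine 27 of histone H3, is found at active promoters and enhancers. H3K27me3, trimethylation of the same residue, is laid down by Polycomb repressive complex 2 and is found at silenced genes, often in wide domains. The same lysine cannot carry both marks. Albumin, fibrinogen, the apolipoproteins and other plasma proteins are made mainly in the liver, where hepatocyte factors such as HNF4A and CEBPA act on their promoters.

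The libraries carried the marks of K562. Over the 6 benchmark H3K27ac libraries, SEACR peaks stood at a start of 12 to 14 of the 14 erythroid marker genes, and no H3K27me3 SEACR peak stood there in either benchmark library. Benchmark SEACR lists held 10930 to 15614 H3K27ac peaks and 83643 to 85248 H3K27me3 peaks. The peak lists themselves hold no read depths, and the sequencing depths that the study gives for its libraries were not used here.

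The results divide the 10 genes into 3 states. The genes ALB, FGA and FGB had no peak of either mark in any of the 56 lists. Of all protein-coding genes, 10.4% were without a peak at a start or in the body in every list. H3K27me3 peaks stood at AHSG, APOB, SERPINA1 and, sparsely, TTR, and in 1 library at APOA1. Only APOA2, F2 and APOB had any H3K27ac peak, at APOA2 from a peak over its neighbour, at F2 in 2 libraries and at APOB in 1.

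The promoters of 4 genes are shown, ALB and FGB for the state without peaks, and AHSG and APOB for the genes with the most H3K27me3 at the body and at the start. Sequences were read from the GRCh37 genome on the strand of the gene, with CpG dinucleotides in capitals, and each stops before the first annotated exon base. They lie at chr4:74269754-74269971 (ALB, plus strand, 218 bases, inside an intron of longer ALB transcripts), chr4:155483913-155484162 (FGB, plus strand), chr3:186330599-186330848 (AHSG, plus strand) and chr2:21266946-21267195 (APOB, minus strand), the last 3 of 250 bases each.
ALB: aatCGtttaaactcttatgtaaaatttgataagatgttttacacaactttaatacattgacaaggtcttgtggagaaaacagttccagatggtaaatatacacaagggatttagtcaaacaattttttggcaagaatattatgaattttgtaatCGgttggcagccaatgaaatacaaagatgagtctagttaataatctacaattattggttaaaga
FGB: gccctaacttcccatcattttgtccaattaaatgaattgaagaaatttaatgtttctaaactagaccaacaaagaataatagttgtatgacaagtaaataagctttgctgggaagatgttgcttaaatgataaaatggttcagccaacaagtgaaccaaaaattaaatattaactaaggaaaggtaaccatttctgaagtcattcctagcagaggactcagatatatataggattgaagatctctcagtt
AHSG: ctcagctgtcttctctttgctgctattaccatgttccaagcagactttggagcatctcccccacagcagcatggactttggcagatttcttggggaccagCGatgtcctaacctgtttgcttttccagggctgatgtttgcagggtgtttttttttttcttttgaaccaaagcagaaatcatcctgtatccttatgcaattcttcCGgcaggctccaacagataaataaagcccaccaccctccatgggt
APOB: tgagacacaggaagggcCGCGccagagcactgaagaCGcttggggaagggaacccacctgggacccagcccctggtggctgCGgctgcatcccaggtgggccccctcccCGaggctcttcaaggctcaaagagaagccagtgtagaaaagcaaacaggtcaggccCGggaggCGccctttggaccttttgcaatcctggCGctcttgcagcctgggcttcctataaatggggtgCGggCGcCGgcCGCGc
The APOB stretch held 13 CpG dinucleotides, AHSG and ALB 2 each, and FGB 0. In full windows of 250 bases, SERPINA1 held 11, the other 8 genes 0 to 3, and the median over 20140 promoters was 18. Within 500 bases of the main start, the ratio of observed to expected CpG was 0.527 at APOB, 0.394 at ALB, 0.275 at SERPINA1, 0.111 at AHSG and 0.0439 at APOA2, and the median of the 10 genes was 0.175 against 0.723 over 20144 genes.

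All 10 genes lay under a ratio of 0.6, as 34.1% of genes did. Among the 6876 genes under that ratio, 25.3% had an H3K27ac SEACR peak at a start in a benchmark library, 40.6% had an H3K27me3 peak and 21.9% had no peak in any list, whereas 69.1%, 27.3% and 4.46% of the 13268 other genes did. For the 10 liver genes the matching counts were 2, 4 and 3. Short motifs were searched on both strands of the 250-base windows. The letters TTGCNNAA, a C/EBP core, were found in 5 genes (ALB, AHSG, APOB, FGA and FGB) and in 7.09% of all windows. The letters TATAAA, which bind the TBP protein, were found in TTR and APOB and in 9.4% of windows. The letters AGATAA, the core recognised by GATA1 and its relatives, were found in AHSG alone of the 10 and in 6.62% of windows. Each motif was counted on its own, so matches may overlap, and a match is not a bound site.

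In the benchmark set, an H3K27ac SEACR peak stood at a start of 2 of the 10 genes (APOA2 and F2) in at least 1 of 6 libraries, where 54.1% of all protein-coding genes had one. No gene of the list had one in all 6, where 36.7% of genes did. In the gene body the count was 1 (F2) against 57.2%. MACS2 lists gave 1 gene (F2) at a start against 58.6% and 1 in the body against 62%. For H3K27me3, SEACR gave 4 genes (AHSG, APOB, SERPINA1 and TTR) at a start in at least 1 of 2 libraries, against 31.8% of all genes, and 3 (all but TTR) in both, against 25.9%. The same 4 genes had SEACR peaks in the body (36.9% of all genes) and MACS2 peaks at a start (33.8%) and in the body (38.2%). Read against these shares of all genes, the count of genes with H3K27me3 was near that of the annotation, and the count with H3K27ac was far under it. Among genes with a CpG ratio under 0.6, as all 10 have, the SEACR start shares were 25.3% for H3K27ac and 40.6% for H3K27me3. The counts of 2 and 4 of 10 were near both.

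Over all lists, H3K27ac peaks touched a start window in 8 of 460 pairs of gene and list (1.74%), against 29.2% for all protein-coding genes. H3K27me3 peaks did so in 27 of 100 pairs (27%), against 25.5%.

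The other lists of genes placed these counts. Of 40 other liver secretory genes, 5 had an H3K27ac SEACR peak at a start and 20 an H3K27me3 peak, in at least 1 benchmark library. AGT, which encodes angiotensinogen, the coagulation factor gene F11, and FETUB and HRG, paralogs in the same protein family as AHSG, had H3K27me3 at a start in 7 of 7 SEACR lists. The 5 with H3K27ac were F12, SERPINF2, LCAT, SERPIND1 and A1BG, with a start peak in 11, 8, 6, 6 and 1 of 31 SEACR lists. SERPINF2 also had H3K27me3 at a start in 7 of 7 SEACR lists, and the other 4 had it in none of these. MACS2 benchmark lists gave H3K27ac at a start of 9 of the 40 genes, with HAMP in 4 of 6 libraries. They gave H3K27me3 at a start of 21, with F12 in 1 of 2 libraries. Of 10 pancreatic secretory genes, another foreign secretory program, 2 had H3K27ac and 5 H3K27me3 at a start (CLPS, CTRB1 and PRSS1 in 7 of 7 lists). Of 12 general secretory machinery genes, which every cell uses to move proteins into the endoplasmic reticulum, 12 had H3K27ac in 6 of 6 benchmark libraries, and CANX and HSPA5 in 30 and 29 of 31 lists. The 12 housekeeping genes had H3K27ac at 10 to 12 starts in each library and no H3K27me3 SEACR peak.

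**Figure D1:**
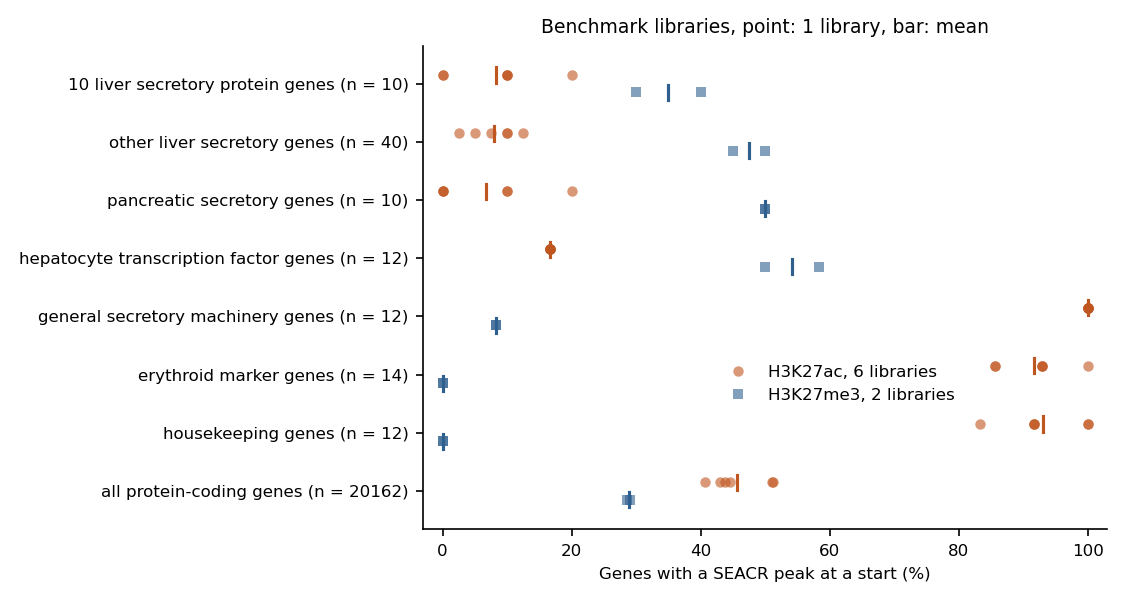
Percent of the genes of each list (y axis, with its number of genes) that had a SEACR peak at a start (x axis), with 1 point for each benchmark library, orange circles for H3K27ac (6) and blue squares for H3K27me3 (2), and a bar at the mean. The 10 liver secretory protein genes sit between 0 and 20% for H3K27ac and at 30 and 40% for H3K27me3, whereas the general secretory machinery genes sit at 100% and 8.33%.

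Among hepatocyte transcription factor genes, 7 of 12 had H3K27me3 at a start in a benchmark SEACR list and 2 had H3K27ac. The nuclear receptor gene NR5A2 and the homeobox gene PROX1 had the mark in 7 of 7 lists, HNF4A in 6 and CEBPA in 4, and mean body cover over the benchmark replicates was 52.4% at HNF4A and 100% at CEBPA. HHEX and FOXA3, which are also used outside the liver, had H3K27ac at a start in 26 and 9 of 31 SEACR lists and in 6 of 6 benchmark libraries. FOXA1 had it in 1 of 31 SEACR lists. MACS2 benchmark lists gave H3K27ac at a start of 4 of the 12 genes, with FOXA1 and FOXA2 in 2 of 6 libraries each. In the body they gave it at 6 of the 12.

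Of the carrier protein genes, ALB (albumin, the main protein of plasma; chr4:74262831-74287199) was empty throughout. Its 15 annotated starts gave windows of 18534 bp in all, and none was touched by a peak of any list. The nearest benchmark SEACR peaks to its main start were 143 to 144 kb away for H3K27ac and 206 and 465 kb away for H3K27me3. On one side the next protein-coding gene, ANKRD17, had H3K27ac at a start in 6 of 6 libraries with either caller. On the other side lay AFP, the fetal albumin relative, 34.0 kb from the outermost ALB start, which is 7.17 kb upstream of the main start. AFP had none in SEACR lists and a peak in 1 of 6 MACS2 lists, which was the peak 26.5 kb from the main ALB start.

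AHSG (fetuin-A, a carrier of calcium phosphate and inhibitor of mineral growth; chr3:186330849-186339107) had the most H3K27me3 over its body. SEACR peaks covered 69.9% and 77.6% of the body in the benchmark replicates, 34.9% in the first library, and 13.5%, 11.7%, 33.1% and 11.4% in the libraries with 11 cycles and SDS, 11 cycles and column, 13 cycles and SDS, and 13 cycles and column. MACS2 peaks covered 85.2%, 80.9% and 39.0% in the benchmark replicates and the first library. No H3K27ac peak touched the gene in any of 46 lists. Over all protein-coding genes, H3K27ac peaks touched the body in 31.1% of pairs of gene and list. The mean body cover of the benchmark replicates, 73.7% ± 5.45 (SD, n = 2), was reached by 6.65% of protein-coding genes, and the median among the 36.9% with any cover was 20.4%.

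At the AHSG start the replicates differed more. The window was covered to 27.3% and 61.1% in SEACR lists and to 52.2% and 34.2% in MACS2 lists. In replicate 1 the SEACR peak over the promoter (chr3:186329887-186330711) ended 138 bases before the start, and in replicate 2 (chr3:186329760-186331608) it ran across it, with a total signal at the 40.3 and 62.1 percentile of its list. The peaks of highest signal lay further along the body, where the peak at chr3:186334584-186337077 in replicate 1 and that at chr3:186334625-186337059 in replicate 2 stood at the 83.6 and 81.1 percentile. Of the AHSG promoter stretch shown above, the peak of replicate 1 covered the 5′ end, and that of replicate 2 covered all of it.

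TTR (transthyretin, a carrier of thyroxine and retinol-binding protein; chr18:29136972-29178796) had thin and scattered H3K27me3. SEACR peaks covered 6.23% and 11.8% of its body in the benchmark replicates, 3.68% in the first library and 0 to 2.75% in the PCR and extraction libraries. In replicate 1, a SEACR peak lay 673 bases past the main start, at the 8.67 percentile of signal, and a MACS2 peak touched the window of the farthest upstream start. Replicate 2 had no peak at any TTR start with either caller, so the callers and replicates shared no call at a start. The recurrent H3K27me3 peak of TTR was elsewhere, 21219 to 21408 bases upstream of the main start in both benchmark replicates and the first library with either caller. The outermost TTR start is 34.9 kb upstream of the main start. Neighbouring DSG2, a desmosomal cadherin gene 58.8 kb from that outermost start, had H3K27ac at a start in 6 of 6 libraries. The nearest benchmark SEACR peak of that mark was 92.0 to 92.7 kb from the main TTR start.

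**Figure D2:**
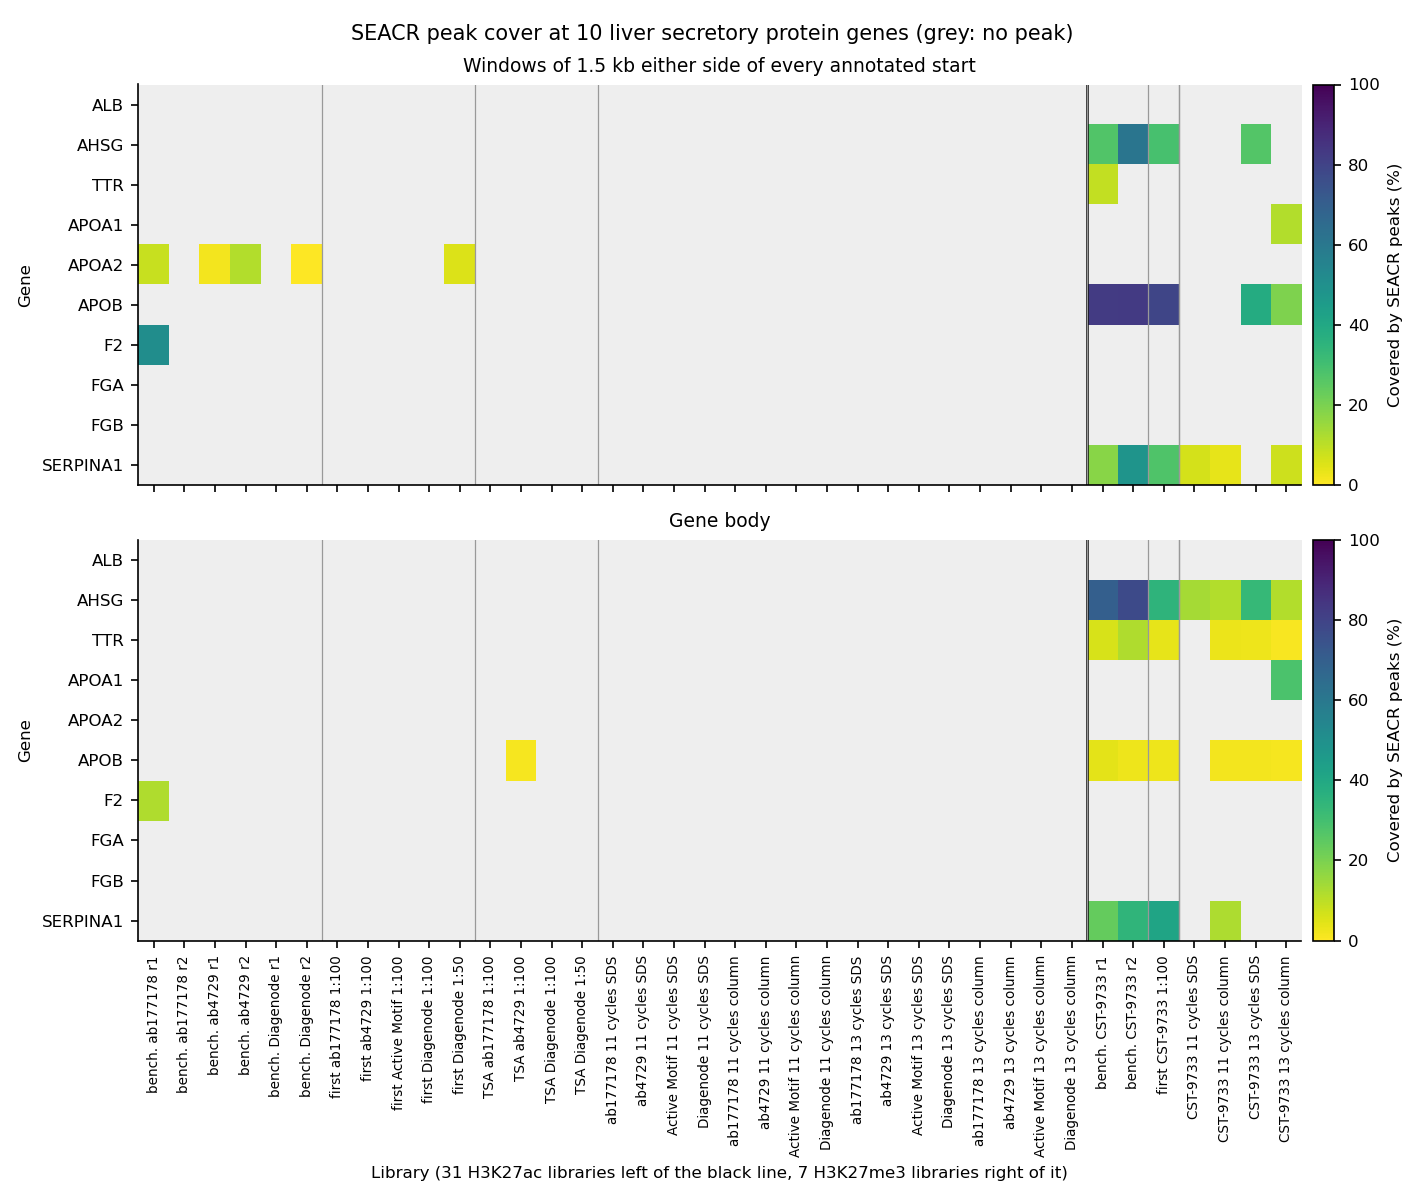
Percent of the start windows (upper panel) and of the gene body (lower panel) of each gene (y axis) covered by SEACR peaks in each of 38 libraries (x axis), as colour, with grey where there was no peak. Colour is almost confined to the 7 H3K27me3 libraries right of the black line, and the exceptions are APOA2 in 5 H3K27ac libraries and F2 and APOB in 1 each. The rows of ALB, FGA and FGB are grey across both panels.

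Of the apolipoprotein genes, APOB (the large structural protein of very low and low density lipoproteins; chr2:21224301-21266945) had H3K27me3 tightly around its start. SEACR peaks covered 82.6% and 83.0% of the window in the benchmark replicates and 78.9% in the first library, and MACS2 peaks 70.9%, 69.0% and 72.8%. The mean of the benchmark SEACR lists, 82.8% ± 0.318 (SD, n = 2), was reached by 6.91% of all genes. The peak ran over chr2:21265876-21268509 in replicate 1 and chr2:21265862-21268453 in replicate 2, from position -1564 and -1508 to position 1069 and 1083 relative to the start, and so took in the whole CpG-bearing stretch shown above. Its signal stood at the 75.6 and 78.9 percentile of the lists. The gene body of 42645 bp was covered to only 4.05% and 2.54%, so AHSG and APOB carried the same mark in different shapes.

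In the PCR and extraction libraries, the APOB window was at 0 and 0 with 11 cycles (SDS and column) and at 38.5% and 19.3% with 13 cycles (SDS and column). These lists had 46.4 to 63.3 Mb under H3K27me3 peaks in all, against 200.1 and 229.2 Mb in the benchmark SEACR lists, and the part of this difference in the lower covers was not tested. The only H3K27ac peak at APOB was a SEACR peak in the TSA library of ab4729, at chr2:21259369-21260003, at the 25.9 percentile of signal. It lay 6942 bases past the start, at the place of a weak H3K27me3 SEACR peak of benchmark replicate 1 (chr2:21259384-21260042, percentile 2.3). No other TSA list had a peak of H3K27ac at any start or body of the 10 genes.

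APOA1 and APOA2 encode the main proteins of high density lipoprotein. APOA1 (chr11:116706467-116708338) had 1 peak in 56 lists, an H3K27me3 SEACR peak in the library with 13 cycles and column extraction, which covered 11.7% of the window and 28.2% of the short body and stood at the 7.67 percentile of signal. Its neighbour APOC3, an inhibitor of lipoprotein lipase 7.92 kb away, had H3K27me3 at a start in 1 of 2 benchmark libraries with either caller.

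APOA2 (chr1:161192082-161193421) had no peak in its body and no H3K27me3 peak in any list. Its start window was touched by H3K27ac SEACR peaks in 4 of 6 benchmark libraries, over 8.53% of the window in ab177178 replicate 1, 1.61% and 11.5% in the ab4729 replicates and 0.155% in Diagenode replicate 2, with 0 in the other two. The first Diagenode library at 1:50 gave 5.24%. Each of these 5 peaks ended 1134 to 1499 bases upstream of the main APOA2 start and covered the start window of TOMM40L, a mitochondrial import gene that runs the opposite way 2.31 kb from APOA2 and had H3K27ac at a start in 6 of 6 libraries with either caller. The nearest MACS2 peaks of the benchmark H3K27ac libraries lay 1.74 to 1.92 kb from the APOA2 start and did not reach its window.

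Of the coagulation genes, F2 (prothrombin, the precursor of thrombin; chr11:46740746-46761056) was the only one of the 10 with an H3K27ac peak across its own start. A SEACR peak of 3885 bp at chr11:46739250-46743134 in ab177178 replicate 1 covered 50.9% of the windows and 11.8% of the body, and the other 5 benchmark libraries were at 0, so the value rested on 1 library. Its total signal stood at the 7.02 percentile of the list. A MACS2 peak of 447 bp was called inside it in the same library, and another of 365 bp in ab4729 replicate 2. Their −log10 q values of 10.1 and 9.30 stood at the 28 and 20.9 percentile of their lists. Replicate 2 of ab177178, whose lists were of like size (15614 SEACR peaks against 15420), had neither. F2 had no H3K27me3 peak in any list, and the nearest in the benchmark SEACR lists were 145 and 148 kb away. The neighbours ZNF408 and CKAP5 had H3K27ac at a start in 6 of 6 libraries.

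FGA and FGB encode the alpha and beta chains of fibrinogen, the precursor of the clot, and lie 27.7 kb apart on chromosome 4. Neither they nor FGG, the gene of the gamma chain next to FGA, had a peak of either mark at a start or in the body in any of the 56 lists. H3K27ac came close: PLRG1, a splicing factor gene 12.6 kb from FGB, had it at a start in 6 of 6 benchmark libraries. The nearest SEACR peak of these libraries ended 11.3 to 12.2 kb from the FGB start. The nearest H3K27me3 SEACR peaks of the benchmark replicates were 38.0 and 38.6 kb from FGB and 35.6 and 55.9 kb from FGA.

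**Figure D3:**
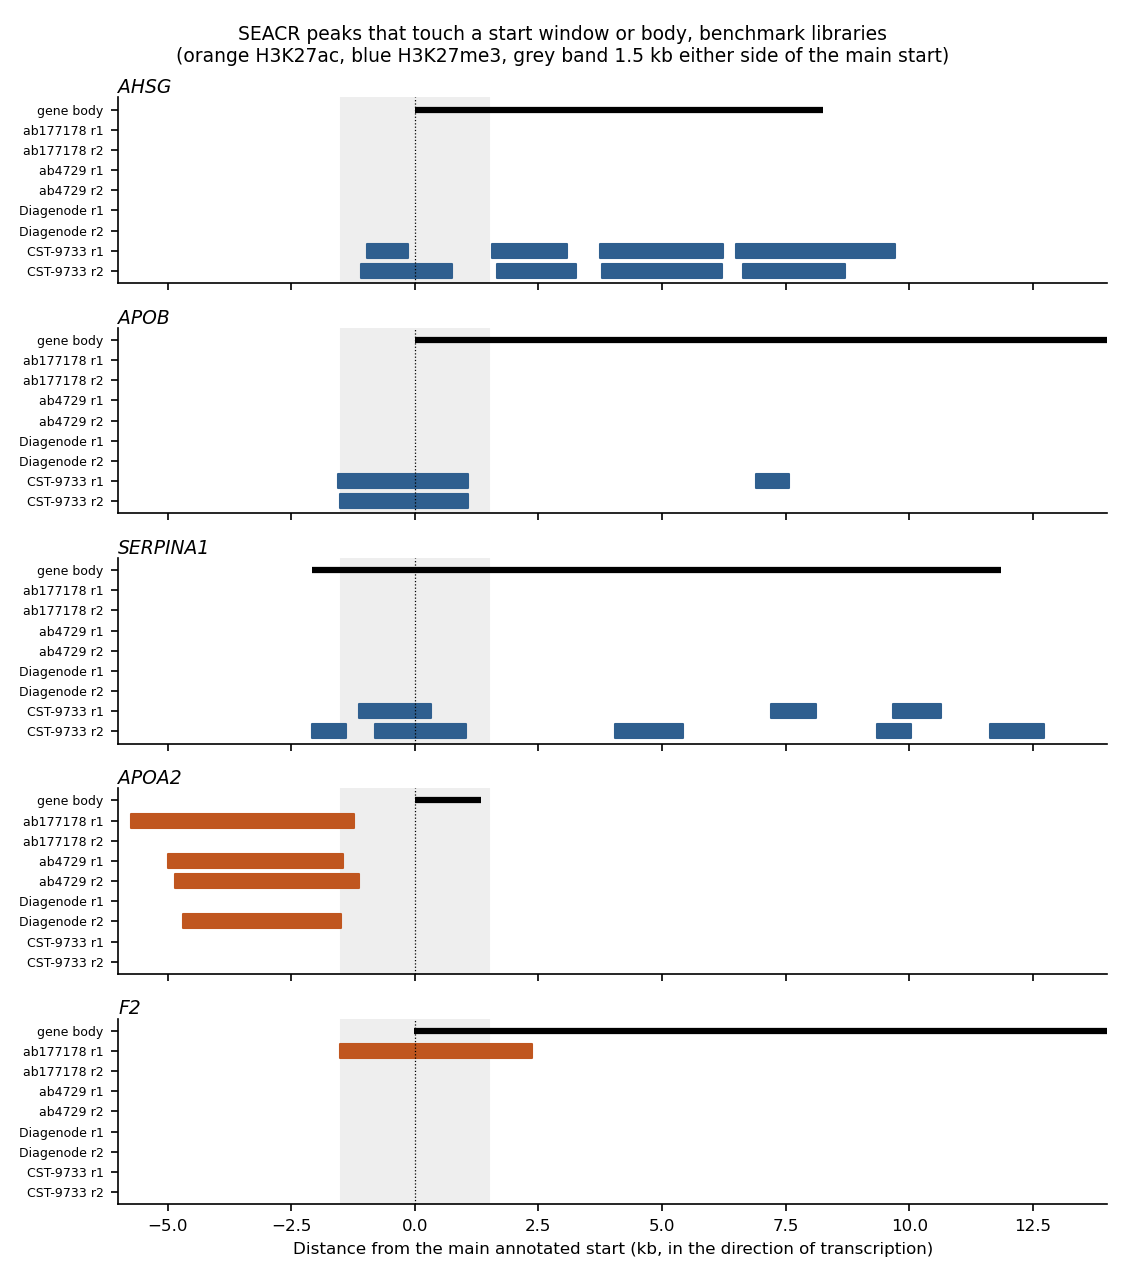
SEACR peaks of the 8 benchmark libraries (y axis) that touch a start window or body, against distance from the main annotated start in kb (x axis, in the direction of transcription), with H3K27ac orange, H3K27me3 blue, the gene body black and 1.5 kb either side of the main start grey. H3K27me3 runs along the AHSG body, is held to the start at APOB and is broken up at SERPINA1, whereas the orange peaks lie upstream of APOA2 in 4 libraries and across the F2 start in 1.

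SERPINA1 (alpha-1 antitrypsin, the main inhibitor of neutrophil elastase in plasma; chr14:94843084-94857030) had H3K27me3 in pieces. SEACR peaks covered 17.8% and 48.1% of its windows in the benchmark replicates and 27.6% in the first library, and 23.8%, 34.4% and 41.7% of its body. MACS2 peaks covered 21.6%, 35.3% and 23.2% of the windows. It has 14 annotated starts, of which a group of 8 lies 2.01 to 2.09 kb upstream of the hepatocyte start group and is known to serve monocytes and macrophages. The main start lay inside an H3K27me3 peak in both replicates (chr14:94854624-94856063 and chr14:94853902-94855739, at the 48.8 and 45.9 percentile of signal). The windows of the upstream group were touched in 5 of 7 SEACR lists and those of the main start in 3, and no H3K27ac list touched any of them. In the benchmark libraries, the nearest H3K27ac SEACR peak was 305 to 307 kb from the main start, the farthest of the 10 genes. Outside the benchmark set, H3K27ac SEACR peaks lay nearer. They covered up to 0.279% of the SERPINA6 to SERPINA3 span in the first libraries and up to 0.199% in the TSA libraries.

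In the PCR and extraction libraries, SERPINA1 windows were at 6.45%, 3.90%, 0 and 7.44% (11 cycles and SDS, 11 cycles and column, 13 cycles and SDS, 13 cycles and column). The body had peaks only with 11 cycles and column, over 12.1%. Libraries of 1 antibody thus called different stretches of the gene.

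**Figure D4:**
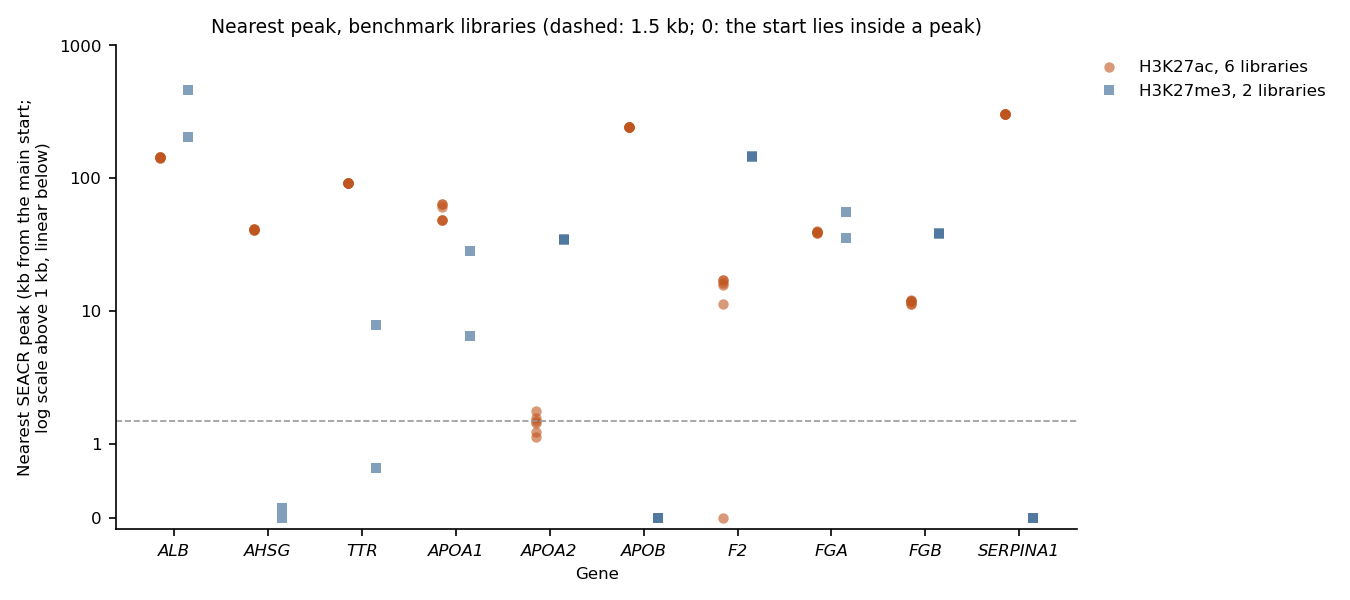
Distance in kb from the main start of each gene (x axis) to the nearest SEACR peak (y axis, log scale above 1 kb and linear below), with 1 point for each benchmark library, H3K27ac orange (6) and H3K27me3 blue (2), and 0 where the start lies inside a peak. H3K27ac points lie above 10 kb for 9 of 10 genes apart from 1 library at F2, and at 1.13 to 1.79 kb for APOA2, and H3K27me3 points reach 0 at AHSG, APOB and SERPINA1.

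The median distance over the 6 libraries from the main start to the nearest H3K27ac SEACR peak was over 10 kb for 9 of 10 genes, against 52.7% of all protein-coding genes, and the median of those distances was 47.9 kb against 14.9 kb. For H3K27me3, 6 of 10 genes lay over 10 kb away against 67.3%, with medians of 26.1 and 34.3 kb.

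Several of the 10 genes sit beside related liver genes, and the spans were scored whole. The span from AHSG through FETUB and HRG to KNG1, the kininogen gene (chr3:186330849-186462199, 131 kb), was covered by H3K27me3 SEACR peaks to 62.2% and 69.6% in the benchmark replicates, 32.6% in the first library and 10.2 to 24.2% in the PCR and extraction libraries, and no H3K27ac peak of any list lay in it. The neighbour FETUB was itself covered to 56.3% of its body on average. By contrast, the spans from ALB to AFM (107 kb) and from FGB to FGG (50.0 kb) had no SEACR peak of either mark in any list. The MACS2 lists had 1 H3K27ac peak in the first of these, over 0.267% of it, in 1 benchmark library. The span of APOA5, APOA4, APOC3 and APOA1 (48.3 kb) was covered to 1.68% and 9.24% by H3K27me3 in the benchmark replicates and to 10.5% in the first library. H3K27ac SEACR peaks covered up to 2.71% of this span in the first libraries and up to 1.56% in the PCR and extraction libraries. They covered 0 in the benchmark and TSA libraries, where MACS2 peaks covered up to 0.870% (benchmark) and 0 (TSA). The SERPINA6 to SERPINA3 span (320 kb, 9 protein-coding genes) was covered to 2.99% and 4.15% by H3K27me3 in the benchmark replicates and to 8.29% in the first library. Within it, SERPINA2, the neighbour of SERPINA1, had mean body cover of 14.9% and a SEACR start peak in 1 of 2 benchmark libraries.

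**Figure D5:**
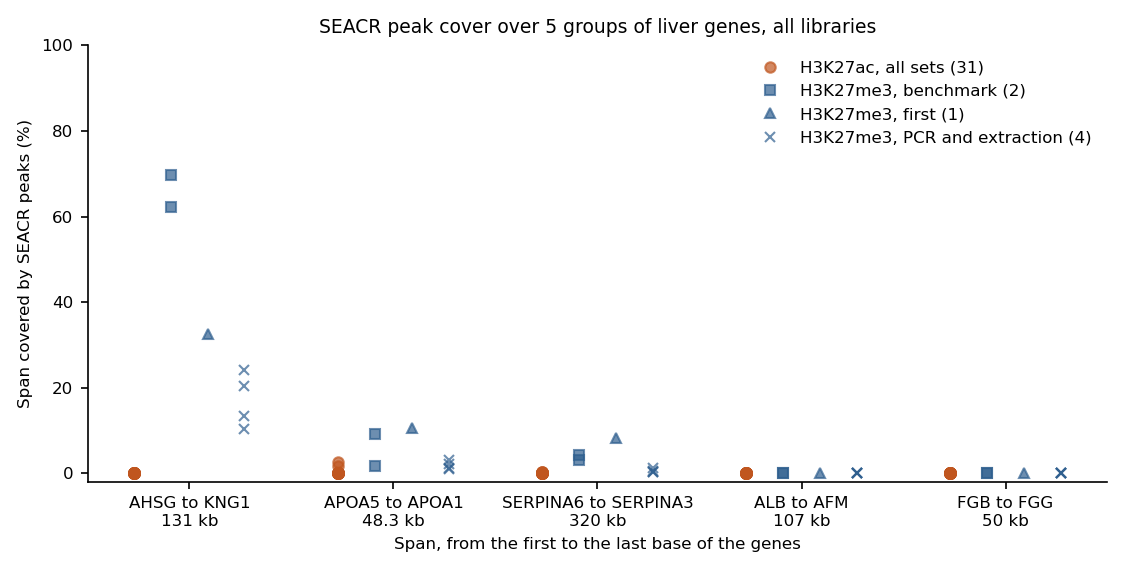
Percent of 5 spans that hold genes of the list and related liver genes (x axis, with length) covered by SEACR peaks (y axis) in each library, with H3K27ac of all sets as orange circles and H3K27me3 as blue squares (benchmark), triangles (first) and crosses (PCR and extraction). The AHSG to KNG1 span reaches 62.2% and 69.6% in the benchmark H3K27me3 libraries, and the ALB and fibrinogen spans stay at 0.

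The 16 H3K27ac and 4 H3K27me3 libraries of the PCR and extraction experiment, downsampled by the authors toward a common number of reads, allowed a test of the difference between marks. Total reads were matched and unique fragments were not, since duplication differed between these libraries. For each gene the mean percent of cover in H3K27me3 lists minus that in H3K27ac lists was tested over 20 libraries with a two-sided exact permutation test (4845 arrangements, smallest p 0.000206), adjusted by Benjamini-Hochberg over all 20162 genes. The mark cannot be told apart from the antibody, or from the SEACR threshold where that differed by mark. The study's account of its settings gives a wider threshold for H3K27me3 but its printed command gives a single one, and the setting behind these 20 lists is not given in the sources used here. These lists also differed in size. The H3K27me3 lists held 65339 to 77684 peaks over 46.4 to 63.3 Mb, and the H3K27ac lists held 3797 to 10821 peaks over 3.43 to 11.6 Mb. The part of list size in the differences by gene was not tested. The libraries of a mark differed in antibody, cycles or extraction, and the 16 H3K27ac libraries shared 4 antibodies.

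Over the gene body, 3 of the 10 genes were higher in H3K27me3 and 0 in H3K27ac, against 21.6% and 4.45% of all genes. AHSG differed by 17.4 percentage points, with 17.4% ± 10.5 (SD, n = 4) against 0 in 16 of 16 H3K27ac libraries (adjusted p = 0.00113, exact permutation test). TTR, with 1.57% ± 1.25 (SD, n = 4) against 0, and APOB, with 1.25% ± 0.858 against 0, had the mark in 3 of 4 libraries (adjusted p = 0.0148 for each, exact permutation test). The TTR peaks all lay upstream of its main start, by 10190 to 31044 bases, and none overlapped a peak of another of these libraries. The APOB peak with 11 cycles and column lay 31729 bases past the start, whereas those with 13 cycles touched the start window. The calls of TTR and APOB were lost when the libraries of 11 cycles and column, 13 cycles and SDS or 13 cycles and column were left out (adjusted p = 0.107, 0.107 and 0.102, exact permutation test), whereas that of AHSG was kept. The median difference of the 10 genes was 0.625 points against 0 over all genes. APOA1 and SERPINA1 had the mark in 1 of 4 libraries (adjusted p = 0.423 for each, exact permutation test), and ALB, APOA2, F2, FGA and FGB had no cover in any of the 20.

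At the starts, 1 gene was higher in H3K27me3 and 0 in H3K27ac, against 15.6% and 5.15% of all genes, with a median difference of 0 both for the 10 genes and for all. SERPINA1 had 4.45% ± 3.32 (SD, n = 4), above 0 in 3 of 4 libraries, against 0 in 16 of 16 (adjusted p = 0.0185, exact permutation test). None of the 4 libraries had a peak in the window of the main SERPINA1 start. The peaks lay at other starts, 2123 and 2822 bases upstream of the main start and 6541 bases past it, and did not overlap each other. The SERPINA1 call was lost without the libraries of 11 cycles and SDS, 11 cycles and column or 13 cycles and column (adjusted p = 0.127, 0.132 and 0.122, exact permutation test). APOB, with 14.5% ± 18.5 (SD, n = 4) in 2 of 4 libraries, did not pass (adjusted p = 0.118, exact permutation test), nor did AHSG at 6.70% ± 13.4 in 1 of 4 (adjusted p = 0.473, exact permutation test).

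In the same tests over the gene body, 12 of 40 other liver secretory genes, 5 of 12 hepatocyte transcription factor genes and 4 of 10 pancreatic secretory genes were higher in H3K27me3, and 0 of each were higher in H3K27ac. The shares of all protein-coding genes were 21.6% and 4.45%. Of the 14 erythroid marker genes, 5 were higher in H3K27ac and 0 in H3K27me3, with a median difference of -12.1 points.

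The body cover of AHSG over the 38 SEACR lists was most like that of CHRNA3 and CLIC6 (Pearson r = 0.997 and 0.996), that of TTR most like PRDM2 and CCDC30 (0.992 each) and that of APOB most like SIGLEC16 and ANXA8L2 (0.961 and 0.959), among genes on other chromosomes or over 1 Mb away. Since the 31 H3K27ac lists were at 0 at nearly all of these points, the likeness rests on the 7 H3K27me3 lists and on how much each list called.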

How the data were processed

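K562 libraries for H3K27ac and H3K27me3 were compared through the peak lists as deposited. Per the paper's methods and the submitters' processing notes, the authors' tools were Trim Galore (0.6.6) for trimming, Bowtie2 (2.2.9) for alignment against hg19, Picard (2.6.0) for duplicate removal, and SAMtools (1.3.1) and bedtools (2.25.0) for alignment files. Each library had its own peak call, without a control. For SEACR the authors deposited the summed and maximum fragment coverage of a peak, here called signal. For MACS2, called narrow for H3K27ac and broad for H3K27me3, the authors deposited a score, the fold (ratio) of pileup over background, and −log10 p and q values. Here they served to place a peak among those of its own list. The authors downsampled the TSA libraries and the PCR and extraction libraries by total reads, which leaves unique fragments unmatched. The sources differ on the SEACR mode and on whether H3K27me3 had a wider threshold. These settings, and duplicates or depth lost before calling, can change which weak peaks are listed.

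The autosomes, X and Y were analysed (11008 peaks on other sequences were left out, 1 ran past a chromosome end, and blacklisted regions were kept), and an overlap of 1 bp was a call. Gene models were GENCODE 44 lifted to GRCh37, of which hg19 is the same assembly, and windows of all starts of a gene were merged. The main start is that of the canonical transcript. Distances to peaks run from the main start, and distances between neighbouring genes run between their outermost starts. Percent cover is the share of window or body bases under peaks. Scripts used Python (3.11.15), numpy (2.4.6), pandas (2.3.3) and scipy (1.17.1), and the permutation test was tested on simulated data. No pair of lists of a caller and mark shared more than 1.25% identical peaks. With 6 against 2 benchmark libraries, values are given and no test. The members, gene lists and tests were chosen with earlier results of these data known, and the spans of neighbouring genes after the members' values were seen. Named genes were all 10 members, their nearest protein-coding neighbours or genes under the same peak, up to 4 genes of each other list called in most SEACR lists of its commoner mark and up to 3 by the other mark, and the 2 genes of most like body cover for members covered in at least 5 lists. SERPIND1, A1BG, HAMP and FOXA2 were added after their values were seen. KNG1, AFP, AFM, FGG, APOA5, APOA4, SERPINA6 and SERPINA3 were named as the ends or members of the spans.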

Additional observations from a re-analysis of the deposited data

Results flagged for a closer look

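Values of a gene were set against the other libraries of the same mark and set where there were 4 to 10 of them, by the gap of the highest or lowest library to its neighbour, over the whole range (Dixon's 95% limit). Of 16 sets with values that differed, 9 passed this limit. Chance flags about 1 in 20 sets of continuous values, a rate that does not apply here: in 8 of the 9 only 1 library had any peak, which passes the limit by construction. The libraries of a set also differ in antibody, cycles or extraction. In the benchmark H3K27ac SEACR lists, ab177178 replicate 1 stood apart at F2, with 50.9% of the windows and 11.8% of the body covered and 0 in the other 5 libraries. Among the 5 first H3K27ac libraries, Diagenode at 1:50 stood apart at the APOA2 start with 5.24%, and among the 4 TSA libraries ab4729 stood apart in the APOB body with 1.49%, each against 0.

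Among the 4 H3K27me3 libraries of the PCR and extraction experiment, that with 13 cycles and SDS stood apart at AHSG, with 26.8% of the window against 0 and 33.1% of the body against at most 13.5%. That with 13 cycles and column stood apart at APOA1, with 11.7% of the window and 28.2% of the body against 0, and that with 11 cycles and column in the SERPINA1 body, with 12.1% against 0. No library stood apart at every gene, and the cause of these differences was not tested.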

How the results depend on the processing

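Of 240 values of a gene's difference between marks under other settings, 227 kept their side of the threshold, 13 fell short of it (TTR and APOB in the body, SERPINA1 at the start) and 0 turned sign. Of the 107 that started from a difference other than 0, 99 kept its sign and 8 became 0. Of the 133 that started from 0, 131 stayed there, and with 3 kb either side TTR went to 0.487 and APOA2 to -11.8 points (adjusted p = 0.442 and 0.0956, exact permutation test). The 3 members called in the body became 1 (AHSG) with only the 50% of SEACR peaks of highest signal, and without the libraries of 11 cycles and column, 13 cycles and SDS or 13 cycles and column. The 1 member called at a start (SERPINA1) became 0 with the peaks of highest signal, with the outermost start alone, and without 11 cycles and SDS, 11 cycles and column or 13 cycles and column, which each take away 1 of 4 H3K27me3 libraries. Calls over all genes at starts fell from 4189 to 2671 with peaks of highest signal. Benchmark counts of members with an H3K27ac SEACR peak fell from 2 to 1 at a start and from 1 to 0 in the body when 2 libraries had to share it or only peaks of highest signal were kept, and ranged from 1 to 2 and from 0 to 1 over the libraries left out in turn, since F2 rested on ab177178 replicate 1. H3K27ac MACS2 starts rose from 1 to 2 with 3 kb either side (APOA2), and H3K27me3 SEACR counts fell from 4 to 2 at starts and in bodies with peaks of highest signal. Leaving out other replicates, 200 bp of overlap and protein-coding starts alone moved no count by over 1.5 times, nor did a MACS2 q of 1e-10 for H3K27ac. That q was not applied to H3K27me3, where all MACS2 peaks of the 10 genes in the benchmark lists were weaker (−log10 q of 1.28 to 5.00). A block on cycle number and extraction left AHSG, TTR and APOB called in the body and SERPINA1 at the start, with 5089 and 4058 calls over all genes. By replicate number, no paired analysis was possible because these libraries carry none and the benchmark values come from no test. List thresholds limit weak signal: a gene without a peak may still carry the mark below them.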
